A study of Mus musculus with 8 samples.

Results

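The olfactory bulb of mouse embryos and newborn pups was dissociated and sorted into cells that carry green fluorescent protein (GFP) from a neurotensin reporter and cells that do not. The subject here is how RNA levels in the GFP-positive cells were ordered over the last part of gestation: embryonic day 15 (E15), embryonic day 17 (E17) and the day of birth (P0). A row of the authors' expression table was taken as a member when its value in GFP-positive cells was higher at each step (rising) or lower at each step (falling) and reached at least 5 FPKM in the highest of the 3 libraries. FPKM is fragments per kilobase of transcript, scaled to the size of the library, and so a level per length. Rows of small RNAs (Mir, Snord and Snora) and the E13 library were left out of the choice. Of 42084 rows, 10802 reached that level, and 3773 of these were members: 1866 rising and 1907 falling. The class of a row and the size of its change from E15 to P0 in GFP-positive cells are set by this rule, so they are given as a description and were not tested.

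There was 1 library for each age and population: GFP-positive cells at E13, E15, E17 and P0, and GFP-negative cells at the same 4 ages. All 8 came from mice on a mixed 129 and C57BL/6J background in which an NTS-IRES-tauGFP cassette sits in the neurotensin locus. The allele was homozygous or heterozygous, and which animals carried 1 or 2 copies, their sex and the number pooled in a sort are left unsaid by the labels. GFP is thus meant to mark any cell in which that locus is active, and the GFP-negative cells are those sorted as lacking it. Because the source field names GFP-positive cells for every sample, titles and the cell population field decided which population a library belongs to. Ages had no replicate, so no difference between ages has a measured error. A set of 3 values below gives E15, E17 and P0 in this order, and a row called ordered upwards or downwards was higher or lower at each of the 2 steps.

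Neurons that send axons out of the bulb, the mitral and tufted cells, are born before birth, extend their axons to the cortex and then grow dendrites and receive synapses. In such a neuron the genes of the growth cone are usually most active while the axon extends, and the genes of synapses and mature membranes come up later. Cadherins are adhesion proteins that bind the same or a related cadherin on a neighbouring cell. Neurogranin binds calmodulin, the calcium sensor, in dendritic spines.

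The sort separated the reporter gene, with 955, 673 and 859 FPKM of Nts in GFP-positive cells, against 4.54, 5.59 and 4.33 FPKM in GFP-negative cells. Of the defining transcription factors of bulb projection neurons, Tbr1 was at 340.1, 307 and 267 FPKM and Eomes at 149, 161 and 150.4 FPKM in GFP-positive cells, while Tbx21, which marks mitral and tufted cells of the mature bulb, was near 0 at 0.448, 0.208 and 0.484 FPKM. Markers of other cells were present in GFP-positive libraries and were not level over age. The 10 mural cell markers summed to 45.04, 37.2 and 131 FPKM in GFP-positive cells, against 13.8, 5.86 and 8.09 FPKM in GFP-negative cells. The 9 microglial markers summed to 6.67, 0.484 and 20.5 FPKM in GFP-positive cells, with 7 of these 9 at 0 at E17. In GFP-negative cells the microglial sums were 0.523, 1.42 and 5.32 FPKM. Radial glia markers summed to 271, 159 and 249 FPKM in GFP-positive cells, against 4059.7, 1082 and 707 FPKM in GFP-negative cells. Fabp7 alone was at 183, 54.6 and 172 FPKM of the GFP-positive sums. GABAergic interneuron markers summed to 128, 104 and 154 FPKM, against 701, 1362 and 1799 FPKM in GFP-negative cells. Their part in the values below was not tested. In bulk RNA, fewer cells of a type and less RNA per cell cannot be told apart.

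The number of members is close to what unordered values would give. Any 3 unequal values lie in a single direction in 2 of their 6 orders, or 33.3%, and members made up 33.7% of rows whose highest value lay between 5 and 10 FPKM, 36.3% between 10 and 30, 34.8% between 30 and 100 and 32.5% above 100 FPKM. Rising rows were 17.3% and falling rows 17.7% of the 10802, and the count of members by itself is therefore no result. Rising members had a median change of 0.63 on the log2(FPKM + 1) scale from E15 to P0 (quartiles 0.39 and 1.0). Falling members had a median of −0.63 (quartiles −0.98 and −0.39). Past 2-fold on that scale were 470 rising rows (4.35%) and 453 falling rows (4.19%). The step from E17 to P0 was the larger for 842 rising (45.1%) and 958 falling members (50.2%). Just inside the level threshold stood Lpar2 with 3.33, 4.78 and 5.003 FPKM and Kti12 with 3.94, 4.59 and 5.01 FPKM, and just outside it stood Pabpc5 with 1.45, 3.16 and 4.96 FPKM and Dlx1 with 1.32, 1.55 and 4.99 FPKM. Among 2821 rows of a single protein-coding gene with at least 30 FPKM, 437 were rising (15.5%) and 632 falling (22.4%), so falling rows outnumbered rising rows where levels were high. The counts of each gene list below stand beside these shares, and a list near them is no result about its genes.

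The GFP-negative libraries were not used in choosing members, and there the share of members ordered the same way was above that of all rows. Of the 1866 rising members, 485 were also ordered upwards in GFP-negative cells (26.0%), against 17.2% of all 10802 rows, and 206 were ordered downwards there (11.0%, against 14.1%). Of the 1907 falling members, 455 were also ordered downwards in GFP-negative cells (23.9%, against 14.1%), and 249 were ordered upwards (13.1%, against 17.2%). Among protein-coding rows with at least 30 FPKM the shares in the same direction were 33.6% of rising members (21.2% of all such rows) and 25.6% of falling members (14.3% of all such rows). Past 2-fold in the same direction in GFP-negative cells were 187 rising members (10%, against 7.4% of all rows) and 218 falling members (11.4%, against 7.48%). Most members were thus not ordered the same way in the other population.

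**Figure D1:**
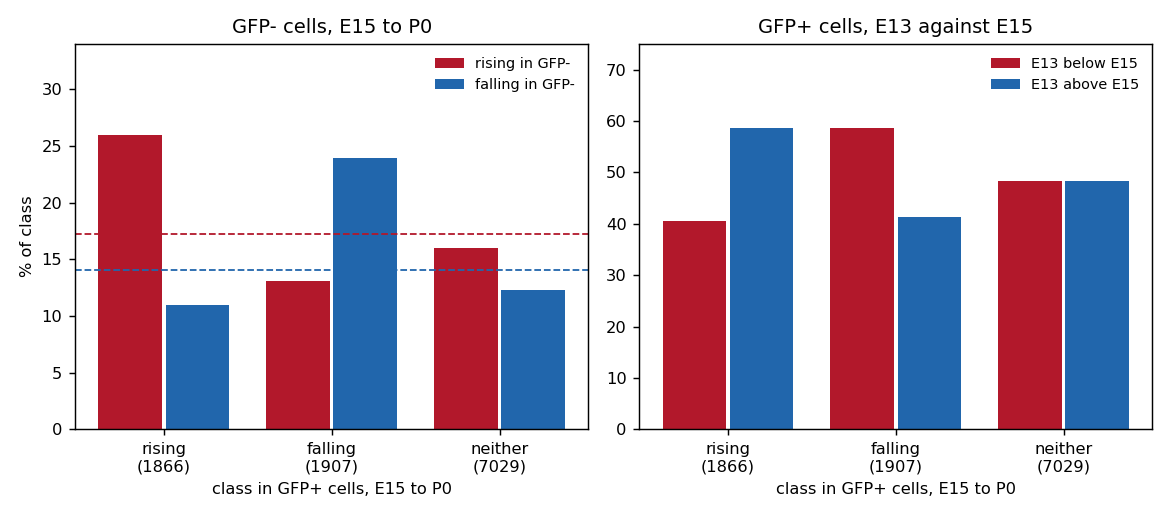
Left, the share of rising, falling and other rows (classes set by GFP-positive cells at E15, E17 and P0) whose GFP-negative value was ordered upwards or downwards, with dashed lines for all rows (17.2% and 14.1%). Right, the share of each class whose E13 value in GFP-positive cells lay below or above E15; the bars for rising members stand at 40.6% and 58.6%.

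The E13 library of GFP-positive cells stands in time order ahead of the 3 used by the rule. Rising members had E13 below P0 in 81.8% of rows (50.1% of all rows) and below E15 in 40.6% (48.9% of all rows). Falling members had E13 above P0 in 80.8% of rows (48.0% of all rows) and above E15 in 41.4% (48.9%). These counts lean on the rule, because a member's E15 value is low when it rises and high when it falls. Its P0 value is likewise high when it rises and low when it falls. The shares of all rows are therefore no baseline for members, and nothing is read from these counts. A break of direction between E13 and E15 was the more common case, in 58.6% of rising and 58.6% of falling members. These shares lean on the rule in the same way, and the genes below are examples. Cdhr1, a protocadherin-related protein used as a mitral and tufted cell marker, was at 75.4 FPKM at E13 and then at 6.68, 13.1 and 16.1 FPKM. Auts2, a nuclear and cytoskeletal regulator of neuron growth named after its values were seen, was at 370.1 FPKM at E13 and then at 159, 410.1 and 459.99 FPKM. Neurod6, a transcription factor of excitatory neurons, stood at 179.6 FPKM at E13 and then at 451, 286 and 185 FPKM, so that its P0 level was close to its E13 level.

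Neurogranin had the largest rise among protein-coding members that reached 30 FPKM. Nrgn (chr9:37544492-37552904, minus strand, GRCm38) had 1.18, 10.3 and 31.8 FPKM in GFP-positive cells, against 0.452, 2.27 and 4.92 FPKM in GFP-negative cells, a log2 change of 3.91 and 2.03. It was low in both populations at E15 and highest in both at P0, and the P0 level was far higher in GFP-positive cells. The GFP-positive values stand for about 13, 81 and 286 reads, read from the whole multiples in which low FPKM values occur. Of 14 measured calmodulin and calcium genes, Nrgn included, 2 were rising and 3 falling, with a median of −0.14. Calm2 and Calm3, which encode calmodulin itself, were falling members with 406, 345 and 309 FPKM and 330.5, 308 and 283 FPKM. In GFP-negative cells Calm2 was at 314, 361 and 391 FPKM, the other direction. Calb2, which encodes the calcium buffer calretinin, was the other rising member at 86.9, 95.9 and 123 FPKM in GFP-positive cells, against 11.2, 38.3 and 43.99 FPKM in GFP-negative cells.

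Cadherins were ordered in both directions. Of 16 measured cadherins and protocadherins 5 were rising and 4 falling, with a median of −0.40, which is below 0 although the largest changes were rises. Under quantile normalization 3 were rising and 4 falling. Cdh4 (chr2:179442431-179899373, plus strand, GRCm38), R-cadherin, had 30.3, 66.98 and 140.5 FPKM in GFP-positive cells, against 58.2, 41.2 and 31.5 FPKM in GFP-negative cells. The 2 populations crossed between E15 and E17, with log2 changes of 2.18 in GFP-positive and −0.87 in GFP-negative cells. Cdh10, a type II cadherin, crossed in the same way at 7.15, 21.04 and 31.5 FPKM in GFP-positive cells, against 13.8, 10.7 and 9.64 FPKM in GFP-negative cells. Of the falling members, Cdh2, which encodes N-cadherin, had 102, 89.6 and 67.4 FPKM in GFP-positive cells, against 129.99, 93.03 and 81.7 FPKM in GFP-negative cells, so both populations were ordered downwards. Cdh7 had 30.1, 19.5 and 12.9 FPKM in GFP-positive cells, against 14.2, 10.9 and 3.95 FPKM in GFP-negative cells. Pcdh19, a protocadherin, had 9.92, 7.97 and 3.44 FPKM in GFP-positive cells, after 44.6 FPKM at E13. Cdh8 was at 8.02, 6.16 and 3.10 FPKM.

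**Figure D2:**
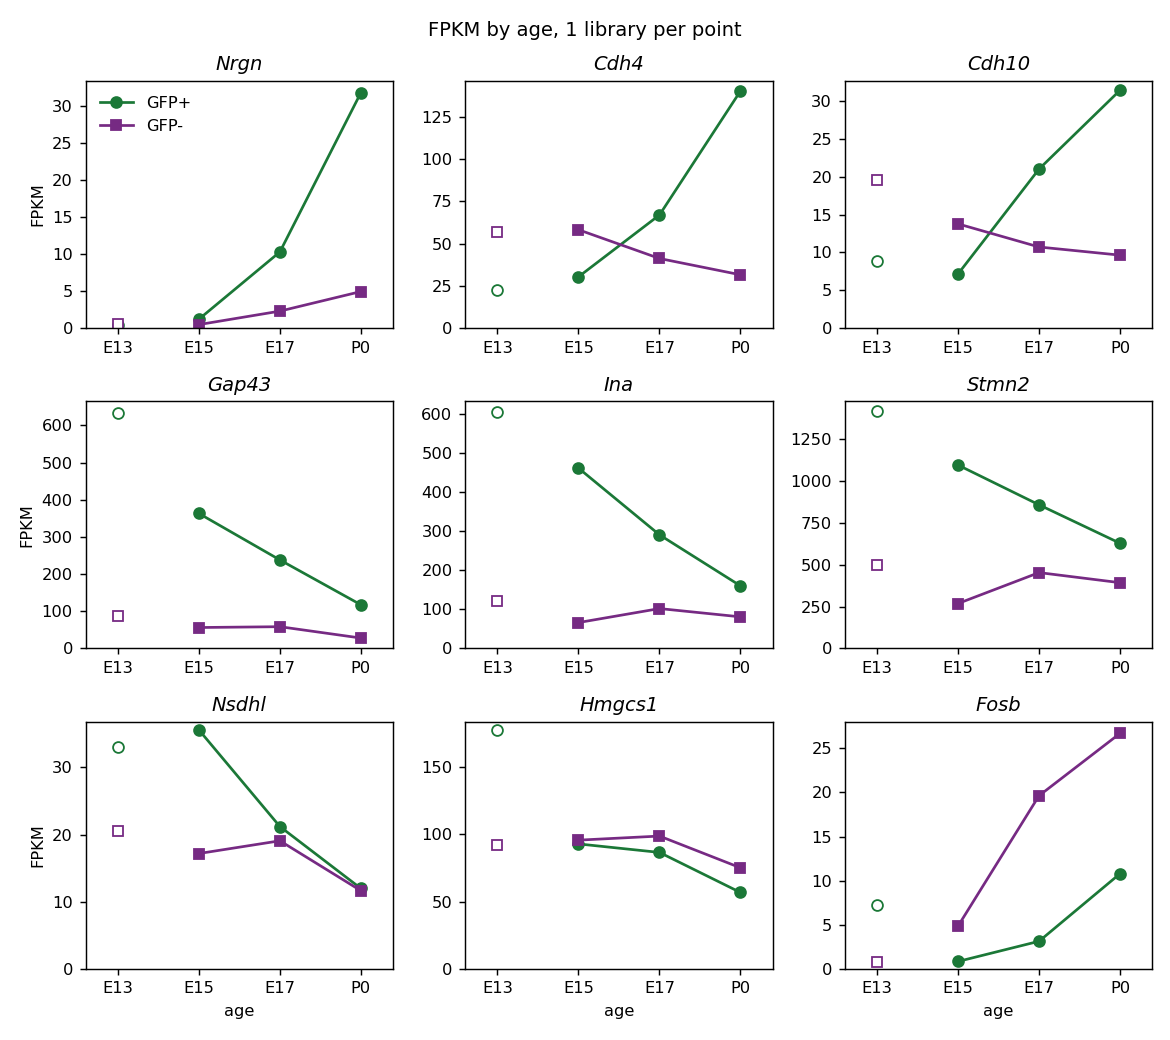
FPKM (vertical axis, from 0) by age in GFP-positive cells (green circles) and GFP-negative cells (purple squares), 1 library per point; open symbols are E13, which the choice of members did not use. Cdh4 and Cdh10 cross between the populations, Gap43, Ina and Stmn2 are ordered downwards from E15 in GFP-positive cells and stay above GFP-negative cells, and Fosb is ordered upwards from E15 in both.

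Other adhesion proteins and synapse organizers were also split, with 7 rising and 6 falling of 33 measured and a median of 0.04. Negr1, a GPI-anchored adhesion protein, had 11.2, 18.9 and 54.5 FPKM in GFP-positive cells, against 37.8, 59.95 and 63.1 FPKM in GFP-negative cells. Lrrtm3 and Lrrtm2, postsynaptic partners of neurexins, were at 6.82, 17.1 and 28.1 FPKM and at 19, 30.6 and 36.7 FPKM in the GFP-positive sort and were ordered upwards in GFP-negative cells too. Nrxn3, a presynaptic neurexin, had 9.06, 22.3 and 35.95 FPKM in GFP-positive cells, against 200.2, 940.02 and 709.9 FPKM in GFP-negative cells, where it was far higher at all 3 ages. Cntnap2, a neurexin-like protein of axons, was ordered downwards in each population, with 87.8, 58.3 and 31.4 FPKM in GFP-positive cells, against 74.02, 30.6 and 23.3 FPKM in GFP-negative cells. Cbln4 and Cbln1, secreted proteins that bridge neurexins to the postsynaptic side, were falling members at 9.51, 3.87 and 1.54 FPKM and at 19.3, 14.7 and 10.04 FPKM in GFP-positive cells.

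Genes of the growing axon leaned to the falling side in GFP-positive cells but not in GFP-negative cells. Of 27 measured genes of the axon growth and growth cone list (growth cone genes here), 12 were falling and 2 rising in GFP-positive cells. This list is broad and also holds the transcription factors Sox4 and Sox11, of which Sox11 was a falling member. Of the 27 genes, 22 were lower at P0 than at E15, with a median of −0.22 against 0.01 over all 10802 rows. Of the 27, 26 reached 30 FPKM, where 22.4% of protein-coding rows were falling and 15.5% rising. In GFP-negative cells 7 of the 27 were ordered upwards and 2 downwards (21.2% and 14.3% of the rows at that level), with a median of 0.54 against 0.05 over all rows. Gap43 (chr16:42248442-42340651, minus strand, GRCm38), the growth cone phosphoprotein, had 363, 238 and 117 FPKM in GFP-positive cells, against 56.1, 58.3 and 27.8 FPKM in GFP-negative cells. Its E13 level in GFP-positive cells was higher still at 634 FPKM, so all 4 ages were in 1 order. Stmn2 and Stmn3, stathmins that bind tubulin, were at 1097, 859 and 629 FPKM and at 393, 333 and 239 FPKM in GFP-positive cells. In GFP-negative cells Stmn2 was at 268, 453 and 393 FPKM and Stmn3 at 111, 150.4 and 194 FPKM, so the gap between the populations was narrower at P0 than at E15. Crmp1, a collapsin response mediator, narrowed in the same way at 378, 256 and 205 FPKM in GFP-positive cells, against 126, 189 and 196 FPKM in GFP-negative cells. Fez1, an adaptor of kinesin transport, was at 148, 113 and 68.2 FPKM, Map1b, a microtubule protein of growing axons, at 1211, 1163 and 857 FPKM, and Tmsb10, which binds free actin, at 841, 619.8 and 578 FPKM in GFP-positive cells. The 2 rising members were Tubb2b, a beta tubulin, at 485, 652 and 711 FPKM, and Marcks, a membrane-linked actin regulator, at 188, 192 and 218 FPKM.

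Genes of the neuronal cytoskeleton leaned to the falling side in GFP-positive cells as well. Their list was drawn up for mature neurites, but Ina, its largest fall, was highest at E13 in GFP-positive cells (604.9 FPKM). Of 19 measured genes 8 were falling and 1 rising, 17 were lower at P0 than at E15, and the median was −0.51 in GFP-positive cells and 0.20 in GFP-negative cells. Of all rows 17.7% were falling and 17.3% rising, and under quantile normalization 13 of 21 genes were falling. Of the 19, 15 reached 30 FPKM, with 7 falling and 1 rising. At that level 22.4% of protein-coding rows were falling and 15.5% rising. Ina, the intermediate filament protein alpha-internexin, had 461, 291 and 159.9 FPKM in GFP-positive cells, against 66.04, 102 and 80.6 FPKM in GFP-negative cells. Ank3, which encodes the ankyrin of the axon initial segment, had 895, 771 and 599 FPKM in GFP-positive cells, against 271, 330.2 and 207 FPKM in GFP-negative cells. Kif5a, a kinesin motor of axonal transport, had 49.9, 36.7 and 33.9 FPKM in GFP-positive cells, against 13.4, 19.6 and 25.8 FPKM in GFP-negative cells, where the direction was the other. The 1 rising gene was Sptan1, a spectrin of the membrane skeleton, at 113, 120.1 and 125 FPKM in GFP-positive cells.

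**Figure D3:**
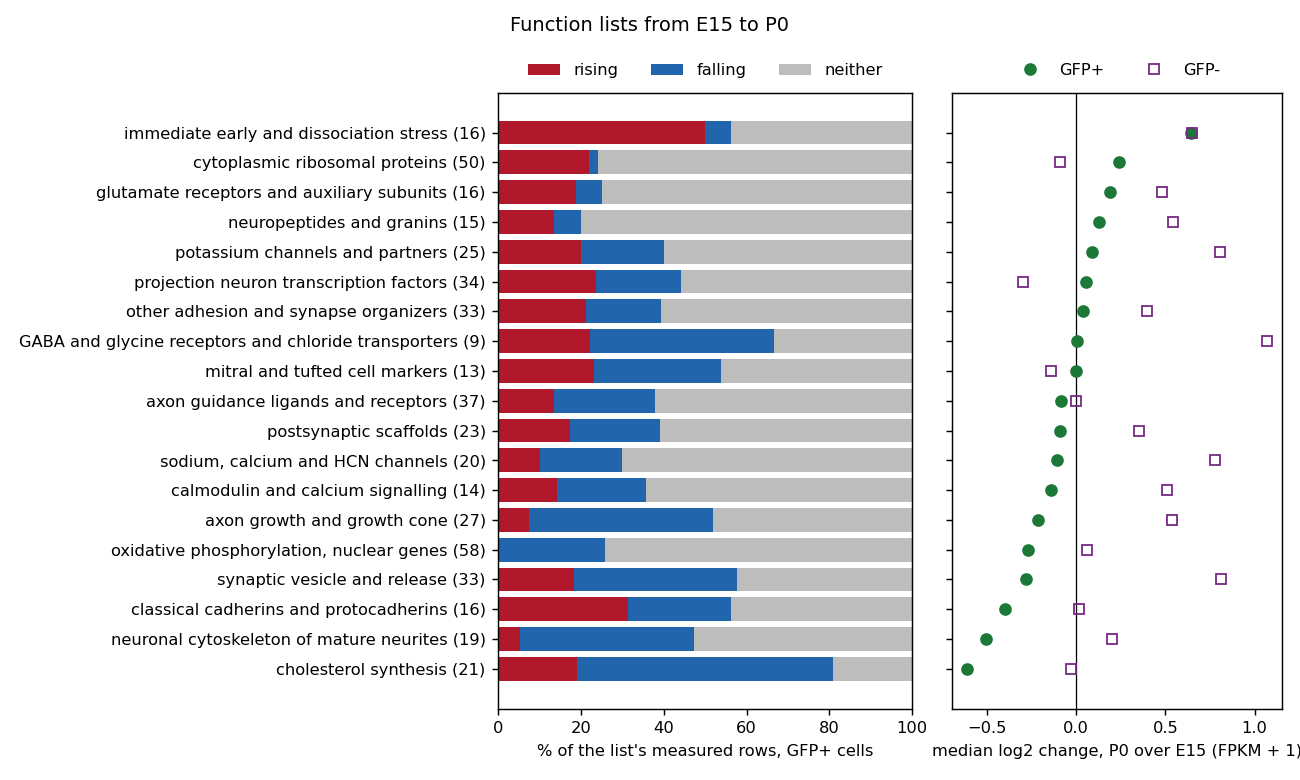
Left, the share of the measured rows of each function list (number of rows in brackets) that were rising, falling or neither in GFP-positive cells at E15, E17 and P0. Right, the median log2 change from E15 to P0 of the same rows in GFP-positive (filled circles) and GFP-negative cells (open squares); the cholesterol list has the lowest GFP-positive median at −0.62, and the synaptic vesicle list lies at −0.28 in GFP-positive and at 0.81 in GFP-negative cells.

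Axon guidance genes gave 9 falling and 5 rising of 37 measured, with a median of −0.09. The receptors Robo1, Robo2 and Dcc were falling members. Robo1 had 99.2, 93.6 and 60.01 FPKM in GFP-positive cells, against 39.2, 33.6 and 24.8 FPKM in GFP-negative cells. Robo2 had 431, 403 and 272 FPKM in GFP-positive cells, against 221, 345 and 383 FPKM in GFP-negative cells, and the populations crossed. Dcc, a netrin receptor, had 244, 224 and 176 FPKM in GFP-positive cells, after 92.7 FPKM at E13. Of the netrin receptors of the Unc5 family, Unc5a was a rising member at 31.5, 31.6 and 56.2 FPKM in GFP-positive cells, against 7.55, 6.26 and 3.74 FPKM in GFP-negative cells. Unc5d had 2.41, 3.81 and 13.3 FPKM in GFP-positive cells, against 11.7, 6.35 and 4.87 FPKM in GFP-negative cells. The 3 rising members with the largest changes, Unc5d, Epha4 and Unc5a, were all ordered downwards in GFP-negative cells. The other rising members, Plxnb1 and Plxnb2, were ordered in neither direction there. Of all 37 genes, 14 were ordered downwards and 4 upwards in GFP-negative cells, against 14.1% and 17.2% of all rows. Epha4, an ephrin receptor, had 1.69, 2.55 and 5.32 FPKM in GFP-positive cells, against 23.1, 14.5 and 11.7 FPKM in GFP-negative cells.

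Genes of synaptic vesicles and transmitter release leaned to the falling side in GFP-positive cells and upwards in GFP-negative cells. Of 33 measured rows 13 were falling and 6 rising in GFP-positive cells, and 21 were lower at P0 than at E15. Of all rows 17.7% were falling and 17.3% rising, so the rising share of these genes was near that of all rows. Of the 33, 26 reached 30 FPKM, with 10 falling and 5 rising. At that level 22.4% of protein-coding rows were falling and 15.5% rising. In GFP-negative cells 15 of the 33 were ordered upwards and 2 downwards, against 17.2% and 14.1% of all rows. Among protein-coding rows with at least 30 FPKM those shares were 21.2% and 14.3%. Vesicle membrane proteins were among the falling members: Syp had 94.4, 82.9 and 60.1 FPKM in GFP-positive cells, against 25.7, 39.8 and 36.7 FPKM in GFP-negative cells. Syt1, the calcium sensor of release, had 121, 112 and 98.2 FPKM in GFP-positive cells, against 18.7, 27.2 and 21.2 FPKM in GFP-negative cells. Sv2b had 74.6, 67.3 and 36.1 FPKM in GFP-positive cells, against 3.84, 5.95 and 4.48 FPKM in GFP-negative cells. Of the fusion machinery, Snap25 was a falling member at 224, 185 and 163 FPKM in GFP-positive cells, against 57.9, 97.1 and 115 FPKM in GFP-negative cells. The complexins were split, with Cplx2 rising at 31.1, 39.1 and 57.95 FPKM and Cplx1 falling at 33.9, 28.8 and 26.6 FPKM in GFP-positive cells. Slc17a6, the vesicular glutamate transporter of these neurons, had 41.9, 44.5 and 59.2 FPKM in GFP-positive cells, against 17.2, 16.7 and 8.06 FPKM in GFP-negative cells.

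Receptors and channels had members in both directions, and members were 34.9% of all rows. Glutamate receptor genes gave 3 rising and 1 falling of 16 measured: Neto2, an auxiliary subunit of kainate receptors, was at 31.8, 48.1 and 80.4 FPKM, Cnih3, an auxiliary subunit of AMPA receptors, at 60.5, 86.9 and 89.04 FPKM and Gria1, an AMPA receptor subunit, at 7.69, 8.65 and 9.29 FPKM in GFP-positive cells. The falling member was Cnih2 at 111, 90.8 and 84.7 FPKM. GABA and glycine receptor genes gave 4 falling and 2 rising of 9 measured, but 1 falling and 3 rising of 9 under median-of-ratios scaling and of 10 under quantile normalization. The change of Gabra5, a falling member, was small. Gabra5 had 52.5, 50.2 and 49.7 FPKM in GFP-positive cells, against 1.31, 3.18 and 3.85 FPKM in GFP-negative cells. Potassium channels and their partners gave 5 rising and 5 falling of 25 measured, and 5 and 3 under quantile normalization. The largest rise among them was Kcnn2, a calcium-activated potassium channel, at 3.14, 11.7 and 19.6 FPKM in GFP-positive cells, against 14.9, 48.1 and 39.1 FPKM in GFP-negative cells. Sodium, calcium and HCN channels gave 2 rising and 4 falling of 20 measured, and 3 rising and 7 falling of 21 under quantile normalization. Postsynaptic scaffolds gave 4 rising and 5 falling of 23 measured, and the 2 Homer genes went opposite ways in GFP-positive cells: Homer1 was at 11.7, 15.4 and 19.5 FPKM and Homer2 at 42.9, 26.1 and 11.6 FPKM. Neuropeptides and granins gave 2 rising and 1 falling of 15 measured, the falling one being the granin Scg2 at 40.5, 32.6 and 20.3 FPKM.

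Transcription factors of projection neurons gave 8 rising and 7 falling of 34 measured. Some factors that mark upper or middle layers of the cortex were rising members. Pou3f2 had 26.8, 34.6 and 63.3 FPKM in GFP-positive cells, against 47.1, 31.5 and 21.4 FPKM in GFP-negative cells, and the populations crossed. Pou3f3 was at 81.6, 101 and 116 FPKM and Rorb at 7.74, 13.8 and 16.8 FPKM in GFP-positive cells. Rorb had 16.1, 8.98 and 7.66 FPKM in GFP-negative cells. Mef2c, an activity-regulated factor, was a rising member at 9.48, 29.9 and 30.4 FPKM in GFP-positive cells, against 11.1, 31.5 and 31.5 FPKM in GFP-negative cells, and the populations were alike. Falling members included the neuronal differentiation factors Neurod6 and Neurod2. Neurod2 had 134, 120.2 and 84.3 FPKM in GFP-positive cells, against 71.2, 51.9 and 26.6 FPKM in GFP-negative cells. Ebf2 was nearly the same in the populations at 8.40, 2.17 and 0.734 FPKM in GFP-positive cells, against 8.10, 1.90 and 0.733 FPKM in GFP-negative cells. Meis2, a factor abundant in bulb interneurons, was a rising member at 18.3, 26.2 and 33.8 FPKM in GFP-positive cells, against 455, 672 and 758 FPKM in GFP-negative cells. This stands beside the summed interneuron markers above, most of which was Etv1 in GFP-positive cells. Those sums were also highest at P0 in both populations.

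Cholesterol synthesis had the lowest median of the 19 function lists in GFP-positive cells. Of 21 measured genes 13 were falling and 4 rising, 16 were lower at P0 than at E15, and the median was −0.62 in GFP-positive cells and −0.03 in GFP-negative cells. Of all rows 17.7% were falling and 17.3% rising, and under quantile normalization 14 of the 21 were falling and 2 rising. In GFP-negative cells 4 of the 21 were ordered downwards and 3 upwards. Enzymes along the whole path were among the falling members, and Srebf2, the transcription factor that turns the path on, was a falling member as well. At its start, Acat2 (cytosolic thiolase) had 43.4, 24.4 and 18.5 FPKM in GFP-positive cells, against 36, 28.1 and 18.99 FPKM in GFP-negative cells. Hmgcs1, HMG-CoA synthase, had 92.9, 86.6 and 56.8 FPKM in GFP-positive cells, against 95.7, 98.7 and 75.1 FPKM in GFP-negative cells. Mvk, mevalonate kinase, had 20.8, 13.4 and 13.2 FPKM in GFP-positive cells, against 15.5, 12.4 and 9.58 FPKM in GFP-negative cells. Fdft1, squalene synthase, had 56.4, 38.3 and 26.3 FPKM in GFP-positive cells, against 32.8, 28.7 and 22.98 FPKM in GFP-negative cells. Near its end, Nsdhl, a sterol dehydrogenase, had 35.6, 21.2 and 11.97 FPKM in GFP-positive cells, against 17.2, 19.1 and 11.6 FPKM in GFP-negative cells. Cyp51, a sterol demethylase, was at 101, 76.5 and 64.2 FPKM and Sqle, squalene epoxidase, at 89.2, 67.6 and 56.2 FPKM in GFP-positive cells. Srebf2 itself had 48.99, 45.5 and 37.6 FPKM in GFP-positive cells, against 39.5, 43.4 and 33.3 FPKM in GFP-negative cells. The rising members were Insig1, which holds the sterol sensor back, at 22.7, 26.98 and 32.8 FPKM, and Hsd17b7, Sc5d and Idi1, enzymes of the path; Hsd17b7 was at 8.84, 17.03 and 18.2 FPKM. Acly, which makes the acetyl-CoA that feeds the path and was named after its values were seen, had 225, 88.8 and 52.8 FPKM in GFP-positive cells, against 130.1, 97.6 and 84.8 FPKM in GFP-negative cells.

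Most promoters of the falling cholesterol genes held a CCAAT box. A promoter here is the 250 bases before a gene's start in RefSeq on GRCm38.p6, and 9 of the 13 falling genes had such an entry. The CCAAT box, searched as CCAAT on both strands (ATTGG on the printed strand where it lies on the other), was found in 8 of these 9 (88.9%), against 40.7% of 6587 genes measured at 5 FPKM or more and 37.5% of all 27025 genes with an entry. It was found in 14 of 15 cholesterol genes when rising and unordered ones are included (93.3%), so its share was no lower outside the falling class. Over all members the shares were 39.5% of 1237 rising and 41.8% of 1279 falling genes. The sterol regulatory element, searched as TCACNCCAC on both strands, was found in 1 of the 9, Hmgcs1, against 1.21% of measured genes. The 3 promoters below are shown because they hold several of these matches, with the matches in capitals: Hmgcs1 lies at chr13:119690101-119690350 (plus strand), Nsdhl at chrX:72918271-72918520 (plus strand) and Mvk at chr5:114444019-114444268 (plus strand). No matches overlap. In Hmgcs1 the sterol element starts at base 114, and the CCAAT boxes start at bases 14, 75 and 206, counted from 1 at the 5′ end.
Hmgcs1: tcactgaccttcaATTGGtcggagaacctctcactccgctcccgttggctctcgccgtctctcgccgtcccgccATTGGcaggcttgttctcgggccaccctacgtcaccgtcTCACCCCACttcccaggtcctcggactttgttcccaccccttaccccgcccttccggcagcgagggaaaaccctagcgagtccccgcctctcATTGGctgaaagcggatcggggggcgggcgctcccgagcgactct
Nsdhl: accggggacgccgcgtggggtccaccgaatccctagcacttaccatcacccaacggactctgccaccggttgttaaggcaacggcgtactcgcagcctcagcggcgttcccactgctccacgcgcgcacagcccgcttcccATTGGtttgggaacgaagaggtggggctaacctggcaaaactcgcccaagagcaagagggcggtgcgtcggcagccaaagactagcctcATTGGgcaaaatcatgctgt
Mvk: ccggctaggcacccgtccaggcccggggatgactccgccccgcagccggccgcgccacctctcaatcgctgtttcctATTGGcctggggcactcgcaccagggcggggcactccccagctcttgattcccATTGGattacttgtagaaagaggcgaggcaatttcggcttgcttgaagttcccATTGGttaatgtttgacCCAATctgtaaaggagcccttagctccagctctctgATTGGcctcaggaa

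Nuclear genes of oxidative phosphorylation had a median below 0 in GFP-positive cells, and genes of cytoplasmic ribosomes had a median above 0. Of 58 measured oxidative phosphorylation genes 15 were falling and 0 rising, and 46 were lower at P0 than at E15, with a median of −0.27 in GFP-positive cells and 0.06 in GFP-negative cells. Of all rows 17.7% were falling and 17.3% rising, and of the 51 oxidative phosphorylation genes with at least 30 FPKM 13 were falling, against 22.4% of protein-coding rows at that level, which is near the list's share. The changes were small: Ndufs1, a subunit of complex I, had 48.97, 43.9 and 34.98 FPKM in GFP-positive cells, against 53.1, 44.6 and 48.3 FPKM in GFP-negative cells. Cox7b, a subunit of complex IV, had 512, 480.1 and 424 FPKM in GFP-positive cells, against 417, 371 and 393 FPKM in GFP-negative cells. Of 50 measured ribosomal protein genes 11 were rising and 1 falling, with a median of 0.24 in GFP-positive cells and −0.09 in GFP-negative cells. Under median-of-ratios scaling 7 of 49 were rising and 4 falling, and under quantile normalization 9 and 4, so the rising share lay on either side of the 17.3% of all rows. Rps14 had 227, 302 and 381 FPKM in GFP-positive cells, against 234, 262 and 362 FPKM in GFP-negative cells. The falling gene, Rpl29, had 119.8, 118 and 43 FPKM in GFP-positive cells, against 118, 83.9 and 34.4 FPKM in GFP-negative cells, so it was low at P0 in both. Ribosomal protein genes have many near-identical copies, and how the authors' counting divided their reads was not stated in the labels.

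**Figure D4:**
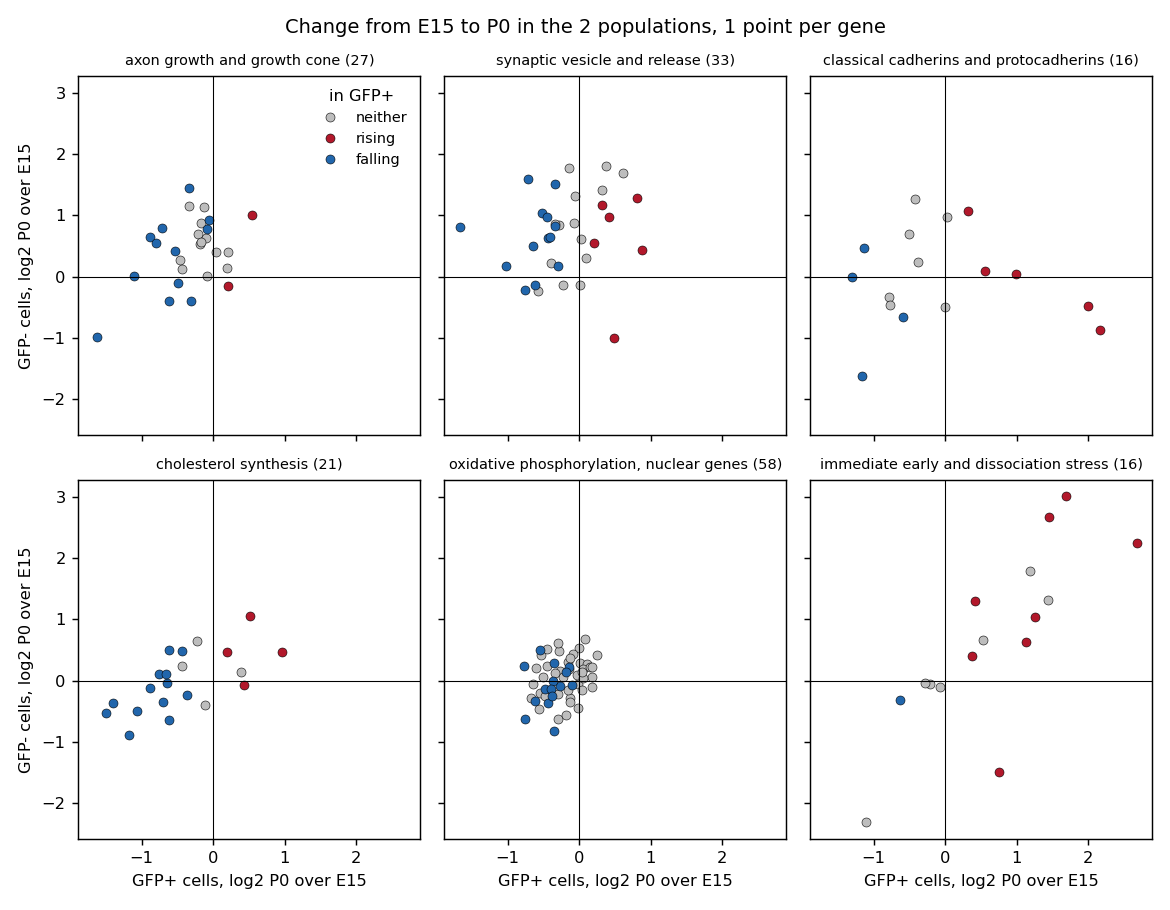
Log2 change from E15 to P0 of each measured gene of 6 lists in GFP-positive cells (horizontal) and GFP-negative cells (vertical), coloured by the class in GFP-positive cells. Growth cone and vesicle genes lie mostly left of 0 and above 0, cholesterol genes lie mostly left of 0, and 7 of the 8 rising immediate early genes lie above 0 in both populations.

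Immediate early and stress genes had a median above 0 in both populations. Of 16 measured genes 8 were rising and 1 falling in GFP-positive cells, and 7 of the 8 were also ordered upwards in GFP-negative cells; the medians were 0.64 in GFP-positive and 0.65 in GFP-negative cells. Of all rows 17.3% were rising and 17.7% falling. Under quantile normalization 5 of the 16 were rising and 2 falling, and under median-of-ratios scaling 7 and 3. Fosb, a Fos family factor, had 0.832, 3.12 and 10.8 FPKM in GFP-positive cells, against 4.85, 19.6 and 26.7 FPKM in GFP-negative cells. Jun had 14.6, 17.97 and 33.3 FPKM in GFP-positive cells, against 21.7, 32.9 and 34.1 FPKM in GFP-negative cells. Nr4a1, an orphan nuclear receptor induced by activity, had 2.40, 2.79 and 8.28 FPKM in GFP-positive cells, against 11.5, 45.3 and 78.8 FPKM in GFP-negative cells. Pnrc1, a nuclear receptor coactivator, had 95.5, 135 and 230.3 FPKM in GFP-positive cells, against 122, 154 and 252 FPKM in GFP-negative cells. Dusp1, a phosphatase of MAP kinases, had 128, 143 and 171 FPKM in GFP-positive cells, against 40.8, 84.3 and 102 FPKM in GFP-negative cells. Btg2, an antiproliferative gene, was the exception, with 3.94, 6.61 and 7.35 FPKM in GFP-positive cells, against 15.8, 8.69 and 4.96 FPKM in GFP-negative cells. These genes are also induced by dissociation, and the labels do not say which libraries were dissociated and sorted together; handling and age cannot be told apart. In GFP-positive cells E13 did not continue the order, with Fosb at 7.29 FPKM and Jun at 27.3 FPKM.

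The cyclic AMP response element, through which CREB induces early genes, was searched as TGACGTCA on both strands. It stood in the promoters of 2 of the 8 rising early genes, Dusp1 and Btg2 (25%), against 3.37% of measured genes. Over all members it was found in 3.96% of 1237 rising genes. No share was taken for early genes that were not rising, so nothing is read from the element about direction. The 2 promoters are shown for that element, in capitals, together with the CCAAT boxes of Btg2, and no matches overlap. Dusp1 lies at chr17:26508473-26508722 (minus strand) and Btg2 at chr1:134079156-134079405 (minus strand).
Dusp1: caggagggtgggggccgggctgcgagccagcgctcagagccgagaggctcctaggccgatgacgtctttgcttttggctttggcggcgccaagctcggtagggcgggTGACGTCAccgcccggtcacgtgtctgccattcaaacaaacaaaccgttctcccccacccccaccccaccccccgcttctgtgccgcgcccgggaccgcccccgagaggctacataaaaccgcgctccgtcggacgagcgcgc
Btg2: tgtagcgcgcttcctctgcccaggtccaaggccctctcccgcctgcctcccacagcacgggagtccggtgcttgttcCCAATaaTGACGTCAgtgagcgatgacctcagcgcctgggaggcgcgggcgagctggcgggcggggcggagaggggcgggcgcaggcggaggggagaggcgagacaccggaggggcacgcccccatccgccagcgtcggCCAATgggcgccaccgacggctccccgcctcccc

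Genes that mark other cells or the sex of the animals varied with age as well. Rgs5, a mural cell gene, had 27.4, 24.4 and 86.2 FPKM in GFP-positive cells, against 2.35, 1.63 and 2.98 FPKM in GFP-negative cells. Ube2c, a cell cycle gene, was a falling member at 15.7, 1.87 and 1.27 FPKM in GFP-positive cells, against 134, 66.3 and 29.5 FPKM in GFP-negative cells. Eif2s3y, a Y-linked gene, was a rising member at 5.08, 15.9 and 35.2 FPKM in GFP-positive cells, against 14.6, 7.40 and 37.5 FPKM in GFP-negative cells. The 4 Y-linked genes measured, this one included, summed to 19.4, 36.5 and 74.5 FPKM in GFP-positive cells, against 34.7, 26.9 and 94.5 FPKM in GFP-negative cells. Dab2 had the largest rise of any named member at 0.270, 11.2 and 28.2 FPKM in GFP-positive cells, against 1.43, 0.297 and 3.10 FPKM in GFP-negative cells. These values stand beside every list above, and their part was not tested.

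The difference between the populations can be tested, with the 4 ages as pairs. It is another contrast than the one used to choose members, but not independent of the choice, because the minimum of 5 FPKM was read in GFP-positive cells alone and lets in rows that are high only there. Over 15149 rows tested, 471 (3.11%) were higher in GFP-positive cells and 385 (2.54%) were lower at an adjusted p of 0.05 (limma, 2-sided). Of the rows with at least 5 FPKM 4.32% were higher and 1.63% lower. Of 1863 rising members tested 76 were higher (4.08%) and 23 lower (1.23%), and of 1907 falling members 104 were higher (5.45%) and 39 lower (2.05%). These shares are near those of all rows with at least 5 FPKM, and nothing is read from them about members. A change over age that the populations do not share adds to the error of a gene in this fit. Leaving out any 1 age left at most 13 members higher and 5 lower, and 0 of each without E15, without E17 or without P0. Among growth cone genes 9 of 27 passed as higher and 0 as lower. Gap43 had a log2 difference of 2.39 ± 0.20 (SE, n = 4 pairs, limma adjusted p = 0.00695), with adjusted p between 0.00519 and 0.125 over the alternatives. Cnih3 had 4.07 ± 0.40 (SE, n = 4 pairs, limma adjusted p = 0.0114) and Meis2 −4.86 ± 0.26 (SE, n = 4 pairs, limma adjusted p = 0.00258). Ina had 1.90 ± 0.32 (SE, n = 4 pairs, limma adjusted p = 0.035). Over the alternatives the adjusted p of Cnih3 lay between 0.00975 and 0.145 and that of Ina between 0.0292 and 0.204. For each of these 4 genes the GFP-positive libraries lay on the same side at all 4 ages. Nrgn had 1.18 ± 0.49 (SE, n = 4 pairs, limma adjusted p = 0.227) and Cdh4 0.14 ± 0.59 (SE, n = 4 pairs, limma adjusted p = 0.907), and neither passed.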

How the data were processed

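The authors deposited 1 FPKM value per gene and library, with 42084 rows and 8 libraries, from single-end reads of 50 cycles, per the labels' protocols. The tools listed in the submitters' processing notes are TopHat2 2.0.9, Cufflinks 2.2.1 and CASAVA 1.8.2, with build mm10; the sources used here name neither annotation nor strand setting. A further 14 rows that the authors set apart were not used here. FPKM holds no depth. Where low values of 7562 genes fell on whole multiples (86.8% to 92.1% within 0.1 of a read), the implied depth was 5.5e+06 to 9.41e+06 reads, at which 1 FPKM on a 2 kb transcript is 9.89 to 16.9 reads. This scale is relative. Rows naming several genes (905) cannot be divided.

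Changes are log2((FPKM + 1) at P0 over (FPKM + 1) at E15), which understates low rows. Ages have 1 library per population, so no test was made over age. Population differences were fitted with limma 3.58.1 in R 4.3.3 with age as a block, a mean-variance trend, 3 residual degrees of freedom and Benjamini-Hochberg adjustment over 15149 rows with a mean of at least 1 FPKM; the fit was tested on simulated data. Nothing in the labels ties libraries to separate litters. With age as a block, p-values set the mean difference between the populations against how much that difference varied over the 4 ages.

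Members and gene lists were chosen with earlier results of these data known. Genes named by rule were Nrgn, Cdh4, Gap43, Nts and Mapt, the 20 largest rises and falls, and in each list the largest rise, the largest fall and the 3 highest means; other list members were chosen after their values were seen. Predicted genes and rows of several genes were not named. Lists count rows of a single gene. Positions come from GENCODE M21 and promoters from RefSeq, GRCm38.p6, of which 6587 of 10237 measured genes had one. Alternatives covered the level minimum, pseudocount, scaling, filter, variance model and leaving out an age. Values of some genes that this selection would name are not reported here.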

Additional observations from a re-analysis of the deposited data

Results flagged for a closer look

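Among the 152 genes named by rule, many of them for large changes, 5 were ordered in opposite directions in the 2 populations at both steps. Each of the 5 changed by at least 2-fold from E15 to P0 in both populations. Each population has 1 library per age, so these differences were not tested. Of rising members 11.0% were ordered downwards in GFP-negative cells, against 14.1% of all rows. Of falling members 13.1% were ordered upwards there, against 17.2% of all rows, so opposite order was not frequent among members. D2hgdh, a mitochondrial dehydrogenase, had a log2 change of −2.50 in GFP-positive and 3.20 in GFP-negative cells, at 18.1, 7.70 and 2.39 FPKM and at 1.45, 6.61 and 21.5 FPKM. Tmem62 had −2.26 in GFP-positive and 2.03 in GFP-negative cells. Dbp, a clock-controlled transcription factor, had −2.21 in GFP-positive and 1.29 in GFP-negative cells, at 7.89, 1.68 and 0.926 FPKM and at 0.907, 0.936 and 3.65 FPKM. No label states the hour of collection. Unc5d, a netrin receptor, had 2.07 in GFP-positive and −1.11 in GFP-negative cells. Pbx3, an interneuron factor, had −1.37 in GFP-positive and 1.27 in GFP-negative cells. Its GFP-positive values were 18.2, 6.422 and 6.397 FPKM, so the second step there was very small. All of them but Pbx3 stayed under 25 FPKM in all 6 libraries.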

How the results depend on the processing

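Age has 1 library per population, so none of the ordered values has a replicate error, and largest folds sit in rows of few reads. The labels give no replicate numbers, so no fit with a replicate block was made, and the population fit pairs the libraries by age. The counts of members stayed within 1.5 times of the 1866 and 1907 given under both scalings, both level minimums and without rows naming several genes. With each step at least 1.2-fold they were 547 rising and 533 falling. Past 2-fold, 470 rising became 293 at a minimum of 10 FPKM, 307 in single protein-coding rows and 219 with a pseudocount of 5, and 453 falling became 234 with a pseudocount of 5. In protein-coding rows with at least 30 FPKM (an alternative chosen after seeing the data) the counts were 437 and 632, past 2-fold 66 and 98, and in the same direction in GFP-negative cells 147 and 162. In the population fit the 180 members higher and 62 lower in GFP-positive cells became 114 and 41 with a pseudocount of 5, 102 and 35 without the variance trend, and 66 and 24 without the filter. Without E13 they were 13 and 5, and 0 and 0 without any of E15, E17 and P0 in turn (limma), where 613, 673 and 844 members had an unadjusted p under 0.05; fewer pairs leave 2 residual degrees of freedom. None of the log2 changes of named members changed sign under either scaling or pseudocount. Under both scalings and at a minimum of 30 FPKM the cholesterol median stayed between −0.65 and −0.62 and the growth cone median between −0.24 and −0.17.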

Other observations

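Members at high levels outside the function lists, chosen after their values were seen, included several with opposite order in the populations. Slc25a12, the mitochondrial aspartate and glutamate carrier, had 61.6, 47.2 and 20.9 FPKM in GFP-positive cells, against 51.05, 75.7 and 91.4 FPKM in GFP-negative cells. Tshz1, a transcription factor of bulb interneurons, had 56.4, 50.2 and 24.02 FPKM in GFP-positive cells, against 32.9, 52.5 and 61.5 FPKM in GFP-negative cells. Sorl1, a sorting receptor, had 25, 69.8 and 80.9 FPKM in GFP-positive cells, against 29.9, 21.9 and 14.8 FPKM in GFP-negative cells. Bcl2, which blocks cell death, had 16.1, 30 and 40.5 FPKM in GFP-positive cells, against 13.02, 8.60 and 8.36 FPKM in GFP-negative cells. Prc1, which bundles microtubules at cell division, had 11.6, 20.1 and 31.9 FPKM in GFP-positive cells, against 64.4, 19.1 and 6.87 FPKM in GFP-negative cells, whereas Mki67, a marker of cycling cells, had 5.23, 0.930 and 0.630 FPKM in GFP-positive cells, against 88.6, 18.2 and 11.4 FPKM in GFP-negative cells.

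Some members held nearly all of their change in 1 library. Tmem9 had 14.3, 18.2 and 188 FPKM in GFP-positive cells, against 31.97, 46.3 and 33.5 FPKM in GFP-negative cells, and had been at 33.6 FPKM at E13. Ndst3, which sulfates heparan chains, had 52.2, 47.3 and 9.996 FPKM in GFP-positive cells, against 15.1, 18.4 and 6.74 FPKM in GFP-negative cells. Rows shorter than 200 bases held 19 rising members, of which 17 were past 2-fold, and 25 falling members, of which 22 were past 2-fold. Another 410 short rows were not members, of which 215 were past 2-fold. Members were thus a smaller share of short rows than the 34.9% of all rows.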
